A study of Mus musculus with 4 samples.

Results

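The cytotoxic granule genes described here were 8 genes chosen by symbol: the granzymes Gzma, Gzmb, Gzmk and Gzmm, the pore former Prf1, the granule proteins Nkg7 and Ctsw, and the death ligand Fasl. All 8 were found among the 31053 features of the deposited matrices. Their levels and joint detection were read in barcodes chosen by marker transcripts: NK cells with at least 1 unique molecular identifier (UMI) of Ncr1 and none of Cd3e, CD8-only T cells with Cd3e and with Cd8a or Cd8b1 but no Cd4, and CD4-only T cells with Cd3e and Cd4 but neither Cd8a nor Cd8b1. None of the 8 genes was used to choose the barcodes.

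Cytotoxic lymphocytes store granzymes, a family of serine proteases, in secretory granules together with perforin. When such a cell meets its target, the granules fuse with the plasma membrane, perforin opens the target's membrane and granzymes enter and cleave proteins inside, which leads to death of the target. Fas ligand acts by another route, through the death receptor Fas on the target. In autoimmune diabetes, CD8 T cells and NK cells are among the leukocytes that infiltrate the pancreatic islets.

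The data were 5′ droplet single-cell RNA libraries of mouse leukocytes, 1 library in each of 4 groups, from a study that deleted Ocab (Pou2af1, a transcriptional coactivator best known from B cells) in T cells. All animals were females said to be pre-diabetic and carried loxP-flanked Ocab alleles (Ocabfl/fl). The control groups had no Cre, and the CD4-Cre groups (Ocabfl/fl.CD4-Cre) carried Cre recombinase driven by Cd4, which acts in developing T cells that become either CD4 or CD8 cells. The strain is not given in the labels. The pancreas libraries each pooled 4 animals aged 12 weeks, with CD45+ cells sorted by flow cytometry, and the lymph node libraries each pooled 5 animals aged 8 weeks, with CD3+ T cells taken from the pancreatic lymph nodes by magnetic separation. Tissue, age and cell selection cannot be told apart, so genotypes were compared within a tissue only.

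Filtering kept 4011 and 6253 pancreas barcodes (control, then CD4-Cre) and 2860 and 5420 lymph node barcodes, with medians of 3588 to 4632 UMIs. Each pair of libraries shared 21 to 70 barcode sequences. The NK gate held 292 pancreas control and 393 pancreas CD4-Cre barcodes, the CD8-only gate 444 and 682, and the CD4-only gate 908 and 2054. In the lymph node the CD8-only gate held 709 control and 1486 CD4-Cre barcodes and the CD4-only gate 1271 and 2723, while the NK gate held 2 and 0 and was not read. Of the NK barcodes, 88.7% and 88.0% had Klre1 and 99.0% and 98.5% had Fcer1g in control and CD4-Cre, against 5.14% and 7.63% with Trac. Klre1 and Fcer1g are only some of the NK markers read, and Fcer1g is also expressed by myeloid cells. Tmem176b, only 1 of the transcripts read as markers of type 1 innate lymphoid cells, which also express Ncr1, was found in 12.0% and 17.0%. By itself it does not separate these cells from NK cells. The targeted gene Pou2af1 stood at 12.5 counts per 1000000 UMIs (CPM) in pancreas CD8-only control and 1.43 in CD4-Cre barcodes. In pancreas CD4-only barcodes it stood at 6.74 (4.4 to 9.87) and 4.26 (2.98 to 5.9), with counting intervals that overlapped. The NK levels of 3.85 and 2.61 rested on 5 UMIs in each library. Lymph node levels were 3.64 and 0.239 in CD8-only barcodes. They were 6.19 and 0 in lymph node CD4-only barcodes, from 39 and 0 UMIs. Pancreas B-lineage barcodes, described below, had 226 and 241 CPM. Whether B-cell RNA added to the pancreas T and NK levels was not tested.

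Gzma, Gzmb, Gzmk and Fasl are shown by the 150 bases just upstream of their RefSeq transcript starts, because the results turn on them: 3 had lower levels in pancreas CD8-only CD4-Cre barcodes, and Gzmk had its highest level in CD8-only rather than NK barcodes. Capitals mark letters that match a T-box motif (GGTGTGA) or a Runx motif (TGTGGT) on either strand, motifs bound by the factor families of T-bet and Eomes and of Runx3.
Gzma: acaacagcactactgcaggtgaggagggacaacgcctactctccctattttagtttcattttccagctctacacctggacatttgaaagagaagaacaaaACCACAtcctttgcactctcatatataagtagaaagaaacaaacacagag
Gzmb: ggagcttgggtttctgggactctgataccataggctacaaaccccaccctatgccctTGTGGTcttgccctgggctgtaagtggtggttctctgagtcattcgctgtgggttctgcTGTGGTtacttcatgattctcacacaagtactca
Gzmk: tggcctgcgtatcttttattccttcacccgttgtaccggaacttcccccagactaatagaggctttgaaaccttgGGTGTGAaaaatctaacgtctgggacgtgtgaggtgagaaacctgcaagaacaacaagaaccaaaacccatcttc
Fasl: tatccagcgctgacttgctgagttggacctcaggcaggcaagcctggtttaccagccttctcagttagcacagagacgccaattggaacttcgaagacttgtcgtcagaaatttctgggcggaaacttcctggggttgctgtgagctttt
The windows lie at chr13:113100982-113101131 (Gzma), chr14:56262335-56262484 (Gzmb), chr13:113180966-113181115 (Gzmk) and chr1:161788496-161788645 (Fasl) of GRCm38.p6 (RefSeq), all on the minus strand. Gzma holds 1 Runx match, in the reverse orientation, 50 to 45 bases before the start. Gzmb holds 2 Runx matches, at 93 to 88 and at 34 to 29 bases. Gzmk holds 1 T-box match at 75 to 69 bases, and the Fasl letters hold neither motif in the 250 bases searched. These matches are descriptions of letters. Over the 250 bases upstream, the T-box letters occur in 3.33% and the Runx letters in 14% of 32851 RefSeq windows. Prf1 and Nkg7 also held a Runx match and Nkg7 a T-box match, and Gzmm held one of each, in 2 separate windows. Ctsw was not matched in this table.

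The genes lie on 6 chromosomes in GRCm38 (GENCODE M21). Gzma (ENSMUSG00000023132, chr13:113093825-113100981) and Gzmk (ENSMUSG00000042385, chr13:113171608-113225908) are neighbours on chromosome 13, 70626 bases apart on the same strand. The Gzmk letters printed above lie upstream of a RefSeq transcript start but inside this GENCODE span of the gene. Gzmb (ENSMUSG00000015437) is at chr14:56258838-56262260, Gzmm (ENSMUSG00000054206) at chr10:79689020-79695261 and Prf1 (ENSMUSG00000037202) at chr10:61297833-61304680. Nkg7 (ENSMUSG00000004612) is at chr7:43437073-43438249, Fasl (ENSMUSG00000000817) at chr1:161780689-161788495 and Ctsw (ENSMUSG00000024910) at chr19:5465043-5468507.

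Levels were taken as UMIs of a gene summed over the barcodes of a gate and divided by all UMIs of those barcodes, in CPM, with exact Poisson 95% intervals. With 1 library per group there is no replicate and no test, and the intervals cover counting error only. A gene's difference of at least 1.5-fold between 2 summed levels, with at least 20 UMIs over both, was called higher or lower. A sum cannot tell fewer expressing cells from less RNA per cell, so the share of barcodes with the gene is given beside it, also after each barcode was thinned to 1000 UMIs.

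In the pancreas the NK gate held the highest level of Gzma, Gzmb, Prf1, Nkg7, Fasl and Ctsw, the CD8-only gate held the highest level of Gzmk, and CD4-only barcodes had the lowest level of all 8 genes among these 3 gates. Gzmm was the one gene whose NK and CD8-only levels lay within 1.5-fold of each other in the control library. Of the 8 genes, 6 were called higher and 1 lower in NK than in CD8-only control barcodes, where 17.0% of all 8914 genes tested were called higher and 14.2% lower. In CD4-Cre, 6 were higher and 2 lower, against 19.0% higher and 12.7% lower.

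**Figure D1:**
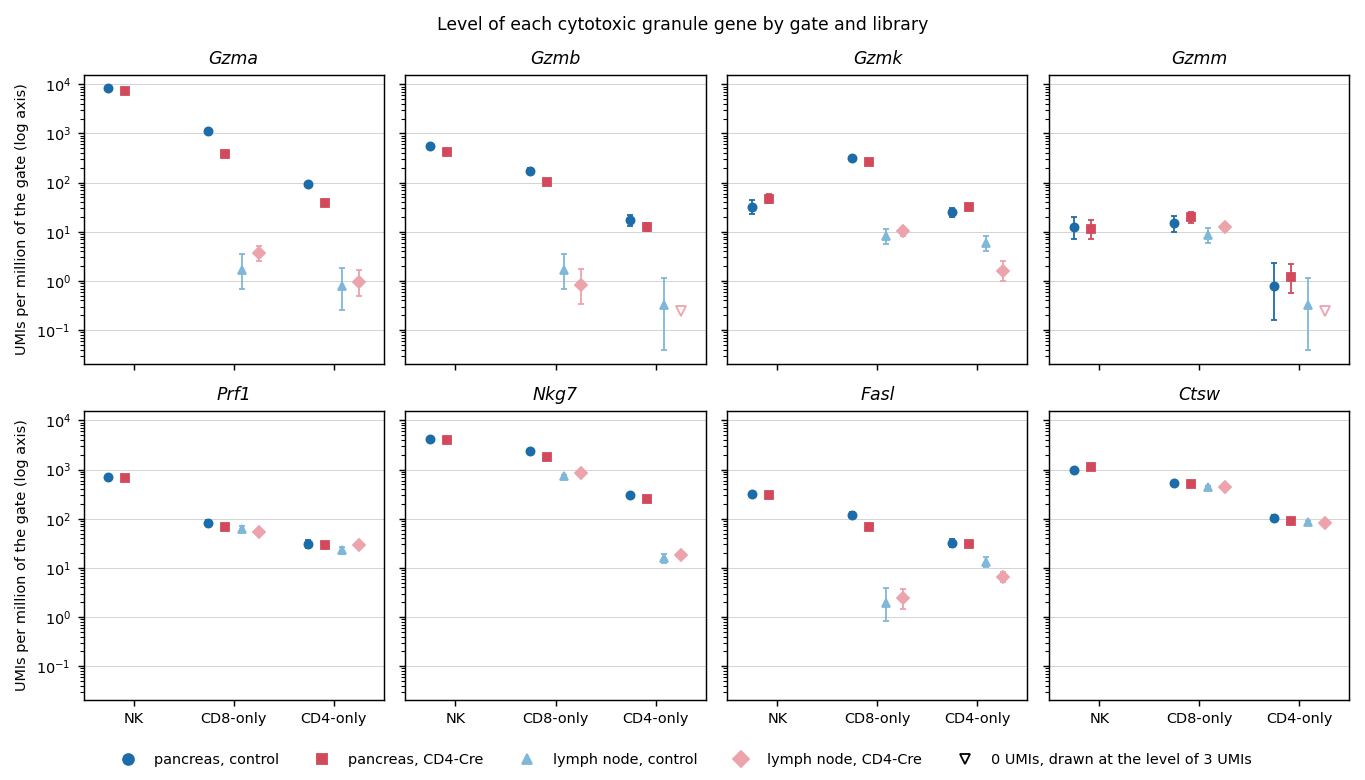
Level of each of the 8 genes in NK, CD8-only and CD4-only barcodes (horizontal axis), in CPM of the gate on a log axis; each point is 1 library and each bar its exact Poisson 95% interval. In the Gzmk panel the CD8-only points of the pancreas (317 and 261) lie above the NK points (32.3 and 47.5), and Gzma spans from 8386 in NK control barcodes to under 1 in lymph node CD4-only barcodes.

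Gzma encodes granzyme A, a tryptase. NK barcodes of the control library had 8386 CPM (8230 to 8545) and those of the CD4-Cre library 7195 (7075 to 7316). In CD8-only barcodes it stood at 1098 in control and 383 in CD4-Cre, and in CD4-only barcodes at 94.9 and 38.1. The NK level was thus higher than the CD8-only level by 2.93 on the log2 scale in control and by 4.23 in CD4-Cre. A Gzma UMI was found in 80.1% of NK control and 77.1% of NK CD4-Cre barcodes, and in 16.7% and 6.60% of CD8-only barcodes. A detecting barcode held on average 46.6 and 45.4 Gzma UMIs among NK and 32.1 and 29.9 among CD8-only barcodes, so the gates differed mainly in how many barcodes had the transcript.

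Gzmb encodes granzyme B, a protease that cleaves Bid and other proteins in target cells. Its level was 566 CPM (525 to 608) in NK control, 428 (399 to 458) in NK CD4-Cre, 176 (159 to 195) in CD8-only control and 101 (90.4 to 112) in CD8-only CD4-Cre barcodes. It was detected in 44.9% and 39.7% of NK barcodes and in 15.8% and 6.74% of CD8-only barcodes. Gzmb therefore kept the same order of gates as Gzma in both libraries, with an NK over CD8-only difference of 1.68 and 2.09 on the log2 scale.

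Gzmk, another tryptase of the family, had the opposite order. Its CPM was 32.3 (23.3 to 43.7) and 47.5 (38.3 to 58.4) in NK control and CD4-Cre, and 317 (294 to 342) and 261 (244 to 278) in CD8-only control and CD4-Cre barcodes. NK levels were lower by 3.29 and 2.46 on the log2 scale. Gzmk was detected in 11.0% and 12.5% of NK and in 41.7% and 28.0% of CD8-only barcodes, so its neighbour on chromosome 13, Gzma, was the more often detected of the pair in NK and the less often detected in CD8-only barcodes. Gzmm, a granzyme that cleaves after methionine or leucine, was at 12.3 CPM (7.04 to 20) and 11.5 (7.20 to 17.4) in NK and at 14.8 and 19.7 in CD8-only barcodes. Its intervals overlapped between the gates in the control library.

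Prf1 encodes perforin, the pore former. It stood at 713 CPM (668 to 761) and 675 (638 to 712) in NK control and CD4-Cre barcodes, 83.3 and 66.7 in CD8-only, and 31.1 and 29.2 in CD4-only barcodes. NK exceeded CD8-only by 3.10 and 3.34 on the log2 scale. It was found in 76.0% and 74.8% of NK and in 26.6% and 25.2% of CD8-only barcodes. Thinned to 1000 UMIs, the CD8-only shares were 8.60% and 5.59%.

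Nkg7 encodes a membrane protein of the granules needed for their release, and Ctsw encodes cathepsin W, a cysteine protease of the papain family made by NK and CD8 T cells. Nkg7 was at 4101 CPM (3991 to 4212) and 3978 (3889 to 4068) in NK control and CD4-Cre, at 2431 and 1828 in CD8-only, and at 308 and 248 in CD4-only barcodes. It was detected in 98.3% and 98.2% of NK and in 92.1% and 87.1% of CD8-only barcodes. Ctsw was at 964 (912 to 1019) and 1146 (1099 to 1195) CPM in NK, 522 and 500 in CD8-only and 106 and 92.1 in CD4-only barcodes. These 2 genes were thus found in most barcodes of both cytotoxic gates, unlike the granzymes. Fasl, the ligand of Fas, was at 313 (284 to 345) and 309 (284 to 335) CPM in NK, 120 and 68.7 in CD8-only, and 32.4 and 30.9 in CD4-only barcodes.

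The level in cells that should lack these genes was read in pancreas B-lineage barcodes (Cd79a and Ms4a1, with neither Cd3e nor Ncr1; 817 and 1236 barcodes, median UMIs 3632 and 3495.5). All 8 genes together summed to 7.17 CPM in control and 7.97 in CD4-Cre there, and 3.06% and 3.40% of barcodes had any of them. Gzma was found in 0.979% and 0.971% of B-lineage barcodes, always as 1 UMI. The Gzma shares in CD4-only barcodes, 1.98% and 1.36%, stood close above that background, at median depths of 3506 and 3526 UMIs. Subtracting the B-lineage level of each library left each of the pancreas genotype calls in NK, CD8-only and CD4-only barcodes as it was.

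All 8 genes were called higher in CD8-only than in CD4-only barcodes in both pancreas libraries, where 10.7% of all genes were called higher and 11.2% lower in control and 9.42% and 9.50% in CD4-Cre. The log2 differences ran from 1.42 (Prf1) to 4.25 (Gzmm) in control and from 1.15 (Fasl) to 4.06 (Gzmm) in CD4-Cre. The Gzmm value in control set 32 UMIs against 3, with an interval of 2.57 to 6.60.

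The comparison of genotypes in pancreas CD8-only barcodes asked how the granule genes stood in CD8 T cells of animals with and without CD4-Cre. Gzma, Gzmb and Fasl were lower in CD4-Cre. Gzma had 1098 CPM (1054 to 1143) in the control library and 383 (363 to 404) in the CD4-Cre library, or 2.86-fold lower (log2 ratio -1.52, -1.62 to -1.42). Gzmb was lower by a log2 ratio of -0.81 (-1.02 to -0.60), and Fasl, at 120 and 68.7 CPM, by -0.80 (-1.06 to -0.54). These were the 3 genes of 8 called lower, with 0 called higher, where 8.70% of 9721 genes were called lower and 6.87% higher. The median log2 ratio of the 8 genes was -0.37, against -0.02 over all genes tested.

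The other 5 genes stayed within 1.5-fold between the libraries. Nkg7 had a ratio of -0.41 (-0.46 to -0.36), Prf1 -0.32 (-0.61 to -0.03) and Gzmk -0.28 (-0.43 to -0.14), each with an interval below 0. Ctsw, at 522 and 500 CPM, had -0.06 (-0.17 to 0.05), and Gzmm 0.41 (-0.21 to 1.06). The intervals of Ctsw and Gzmm held 0. The myeloid transcript Lyz2 stood at 638 CPM in control and 485 in CD4-Cre in this gate, found in 6.53% and 3.23% of barcodes. Without barcodes that had a UMI of Lyz2 or of the B-cell genes Cd79a and Ms4a1, the ratios were -1.57 for Gzma, -1.13 for Gzmb and -0.88 for Fasl, and 3 genes were called lower.

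**Figure D2:**
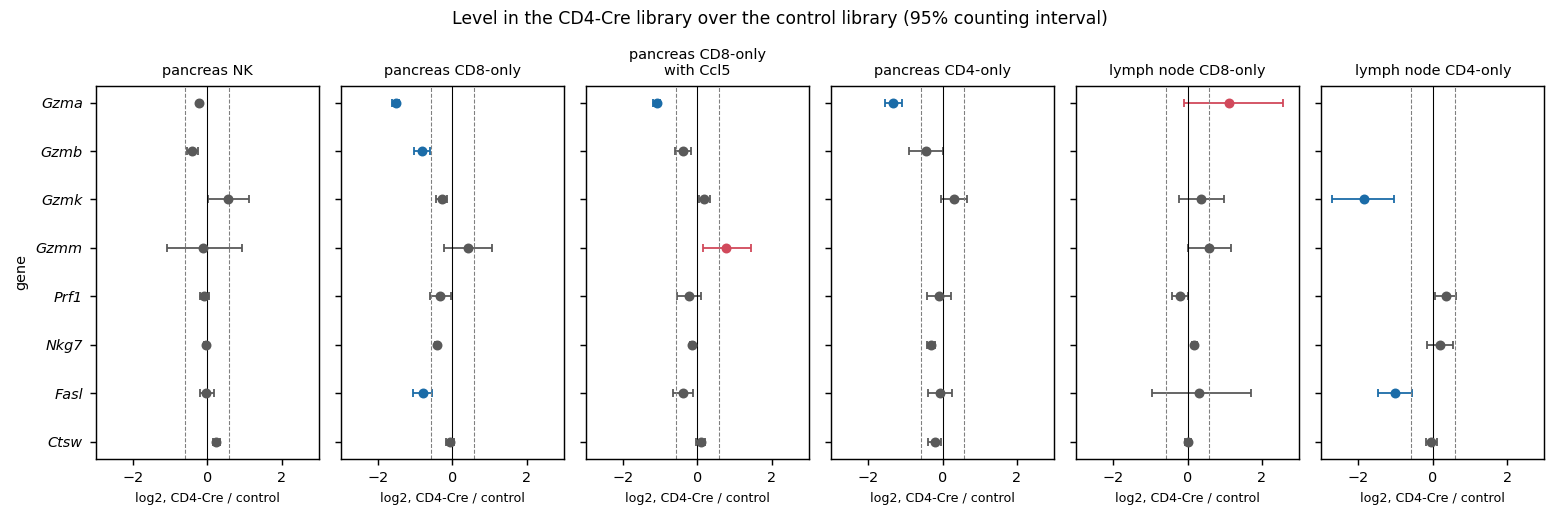
Log2 ratio of each gene's level in the CD4-Cre library over the control library (horizontal axis) by gate and tissue; points are ratios of CPM, bars 95% counting intervals, dashed lines 1.5-fold, and genes with under 20 UMIs are left blank. In pancreas CD8-only barcodes Gzma, Gzmb and Fasl lie left of the lower line (blue, called lower; red, called higher), while in NK barcodes all 8 points lie between the lines.

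Shares of barcodes gave the same direction for those 3 genes. After thinning to 1000 UMIs, Gzma was found in 13.6% of 442 CD8-only barcodes of the control library and 3.82% of 680 of the CD4-Cre library, which differ by -9.75 percentage points (Newcombe 95% interval -13.5 to -6.40). Gzmb was found in 8.60% and 2.21%, a difference of -6.39 (-9.50 to -3.72), and Fasl in 13.1% and 6.62%, a difference of -6.50 (-10.3 to -2.96). Nkg7 was found in 76.9% and 63.1%, a difference of -13.8 (-19.1 to -8.38), and Gzmk in 23.5% and 16.6%, a difference of -6.91 (-11.8 to -2.15). Ctsw was found in 41.9% and 34.4%, a difference of -7.44 (-13.2 to -1.64). The Prf1 difference, -3.01, had an interval that reached 0.00883. Each gate was thinned in 1 random draw, and shares of low genes move with the draw. Expected over all draws, computed exactly for each barcode after the data were seen, the Gzma shares were 13.4% and 4.14%, and those of Gzmb 8.96% and 2.76% (-6.20, -9.39 to -3.43). The Fasl shares were 12.7% and 6.25% (-6.47, -10.2 to -2.99). The expected differences for Ctsw, -5.64 (-11.4 to 0.104), and Prf1, -2.43 (-5.92 to 0.762), had intervals that held 0.

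Gzma and Gzmb UMIs were concentrated in few CD8-only barcodes, in fewer in CD4-Cre than in control. The 10 barcodes with the most Gzma UMIs held 49.3% of the gate's Gzma in control and 82.9% in CD4-Cre, and 50% of the gate's Gzma UMIs lay in 11 and 2 barcodes. For Gzmb the top 10 held 55.4% and 81.0%. Gzmk and Fasl were spread more evenly: the top 10 barcodes held 24.5% and 18.8% of Gzmk, and 17.0% and 20.3% of Fasl. One CD4-Cre barcode alone held 450 Gzma UMIs (33.5% of the gate) and 141 Gzmb UMIs (39.9%), and it had 42 UMIs of Cd3e and 20 of Cd8a but 0 of Cd8b1 and 0 of Trac, with 24 of Tyrobp and 31 of Fcer1g. Without the top barcode of each library the log2 ratios were -1.94 for Gzma, -1.35 for Gzmb and -0.81 for Fasl, an alternative added after the data were seen. The highest control barcodes, with 267 and 228 Gzma UMIs, also held 10 and 25 UMIs of the cell-cycle gene Mki67.

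**Figure D3:**
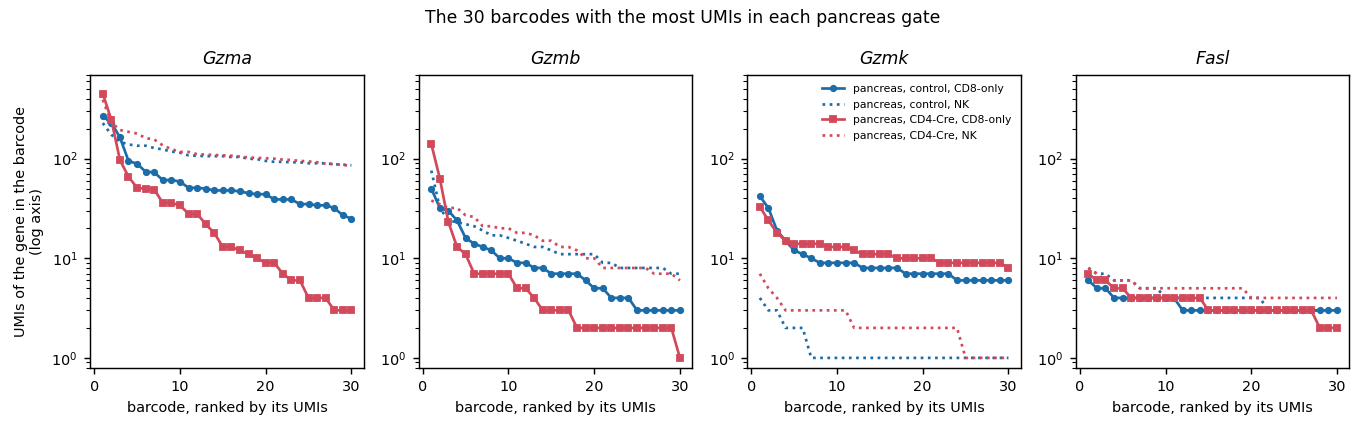
UMIs of Gzma, Gzmb, Gzmk and Fasl (vertical, log axis) in the 30 pancreas barcodes with the most UMIs of that gene, ranked from most to least; solid lines with markers are CD8-only and dotted lines NK barcodes, blue control and red CD4-Cre. For Gzma the CD8-only CD4-Cre line starts at 450 UMIs and drops below the control line from the third barcode on, whereas for Gzmk it lies above the control line from the fifth barcode on. The CD8-only gates held 444 control and 682 CD4-Cre barcodes, so a rank is not the same share of each gate and the lines do not compare levels.

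Transcripts of the NK lineage were present in some T barcodes. A UMI of Ncr1, Klrb1c, Tyrobp or Fcer1g was found in 44 control (9.91%) and 60 CD4-Cre (8.80%) CD8-only barcodes, which held 21.2% and 52.6% of the gate's Gzma UMIs, 19.2% and 45.6% of its Gzmb and 17.0% and 31.1% of its Fasl. Without them the log2 ratios were -2.22 for Gzma, -1.35 for Gzmb and -1.05 for Fasl, and the same number of genes, 3, was called lower. Tyrobp and Fcer1g are also expressed by myeloid cells, so the set is not specific to NK cells. This set of transcripts was chosen after the data were seen.

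The pancreas CD8-only gate also differed between libraries in how many barcodes had Ccl5, a chemokine transcript that marks effector and memory CD8 T cells: 72.7% (68.4 to 76.8) of control barcodes against 49.1% (45.3 to 52.9) of CD4-Cre barcodes, with 2.94% and 2.43% of B-lineage barcodes. Thinned to 1000 UMIs the shares were 68.1% and 44.9%. Nearly all Gzma and Gzmb UMIs lay in the barcodes with Ccl5. The CD8-only barcodes without Ccl5 held 5 and 2 UMIs of Gzma and 0 and 0 of Gzmb, whereas Prf1 (36.2 and 43.3 CPM), Nkg7 (792 and 736) and Ctsw (275 and 313) were present in them. Gzmk had 24 UMIs (43.4 CPM) in 6 control barcodes, 15 of them in 1 barcode, and 2 UMIs (1.29 CPM) in 1 CD4-Cre barcode without Ccl5, a log2 ratio of -5.07 (-8.19 to -3.06). It was the 1 gene called lower of 4 with enough UMIs there, where 8.85% of genes were called lower and 13.4% higher. All 8 genes were called higher with Ccl5 than without it in both pancreas libraries, where 25.4% of genes were called higher and 8.72% lower in control and 19.1% and 7.82% in CD4-Cre. That difference was smallest for Ctsw (1.14) in control and for Prf1 (0.97) in CD4-Cre.

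Within the 323 control and 335 CD4-Cre CD8-only barcodes with Ccl5, 1 gene was called lower and 1 higher, where 8.27% of 8947 genes were called lower and 7.24% higher. Gzma had 1472 CPM in the control library and 685 in the CD4-Cre library (log2 ratio -1.10, -1.20 to -1.01), and after thinning it was found in 18.6% and 8.08% of barcodes, which differ by -10.5 points (-15.8 to -5.38). Gzmm was higher, 19.3 and 33.1 CPM, at 0.78 (0.14 to 1.45), in 23 and 32 barcodes. Gzmb (-0.40) and Fasl (-0.39, -0.66 to -0.13) came within 1.5-fold in summed level. The CD4-Cre sum of Gzmb includes the 1 barcode with 141 UMIs. Expected over all thinning draws, Gzmb was found in 12.3% and 5.62% of these barcodes (-6.68 points, -11.2 to -2.32). Fasl was found in 17% and 12.4% (-4.59, -10 to 0.835). Gzmk, at 411 and 465 CPM, had 0.18, against -0.28 in the whole CD8-only gate and -5.07 among barcodes without Ccl5.

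In NK barcodes of the pancreas 0 of the 8 genes were called lower or higher in CD4-Cre, where 6.14% of 8682 genes were called lower and 9.63% higher. The log2 ratios were -0.22 for Gzma, -0.40 for Gzmb, -0.08 for Prf1, -0.04 for Nkg7, -0.02 for Fasl, 0.25 for Ctsw, 0.56 for Gzmk and -0.10 for Gzmm. The intervals of 4 of the 8 held no 0, and the median was -0.06, against 0.06 over all genes tested. Gzmk stood nearest to the threshold, at 42 UMIs in control and 91 in CD4-Cre. The myeloid transcript Lyz2 was at 99.3 CPM in NK control and 420 in NK CD4-Cre barcodes. Without barcodes that had a UMI of Lyz2, Cd79a or Ms4a1, 0 genes were called lower, with ratios of -0.24 for Gzma, -0.49 for Gzmb and 0.46 for Gzmk. Whether the NK and CD8-only ratios differ was not tested, since each rests on 1 library per group.

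Pancreas CD4-only barcodes had 1 gene of 7 with enough UMIs called lower, Gzma, where 6.79% of 10660 genes were called lower and 4.00% higher. Its levels were 94.9 and 38.1 CPM (-1.32, -1.54 to -1.10). Only 10 barcodes in each library held at least 5 Gzma UMIs, and these carried 97.5% and 93.8% of the gate's Gzma. The control barcode with the most, 108 UMIs, had 2 UMIs of Cd3e, 1 of Cd4, 13 of Ncr1 and 20 of Tyrobp. Without barcodes that had an Ncr1 UMI the ratio was -0.75, and with doublets removed at the doubled rate it was -0.19 and no gene was called lower. With no doublet removal it was -0.31, and the 1 gene called lower was Gzmb (-0.62). Nkg7 (308 and 248 CPM), Ctsw (106 and 92.1), Prf1 (31.1 and 29.2), Fasl, Gzmk and Gzmb stayed within 1.5-fold.

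Regulatory barcodes, CD4-only with Foxp3, numbered 71 in pancreas control and 138 in CD4-Cre. Gzmb stood at 117 CPM (88.2 to 152) and 113 (90.7 to 139) there, but 46 of the 56 control UMIs were in 1 barcode, while the 90 CD4-Cre UMIs were spread over 11 barcodes. Gzma had 93 UMIs in control, 57 of them in 1 barcode, and 3 in CD4-Cre. Gzma and Ctsw (175 and 105 CPM, -0.74) were the 2 genes of 5 called lower, against 10.7% of genes lower and 12.0% higher.

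T barcodes with Trdc and no Trac, a gate meant for gamma-delta T cells but not specific to them, numbered 109 and 159 in the pancreas. Their Gzma level was 1773 CPM in control and 1917 in CD4-Cre (0.11), Gzmb 256 and 319, Prf1 173 and 172, Nkg7 1876 and 2048 and Fasl 184 and 167. Of 7 genes with enough UMIs, 0 were called lower and 1, Gzmk with 5 and 26 UMIs, higher, where 9.18% of genes were called lower and 11.0% higher. One CD4-Cre barcode held 450 of the 1587 Gzma UMIs, and it is the same barcode that led the CD8-only gate. It also held 141 Gzmb UMIs. The Gzma ratio of 0.11, the CD4-Cre Gzmb level of 319 and the count of 0 genes called lower include this barcode. These values were not computed without it. Ncr1 was found in 57.8% and 54.7% of this gate. The NK CD4-Cre barcode with the most Gzma had 3 UMIs of Trdc and 0 of Cd3e, so Trdc by itself did not separate gamma-delta T cells from NK cells. T barcodes with neither coreceptor nor Trdc (707 and 975) had Gzma lower (-0.95), Gzmb lower (-0.88), Gzmk lower (-1.27) and Gzmm higher (0.98, 7 and 20 UMIs), against 5.47% lower and 7.88% higher over all genes. In that gate the barcodes with an Ncr1 UMI, 50 in control and 63 in CD4-Cre, held 63.8% and 94.3% of the Gzma UMIs.

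In lymph node CD8-only barcodes 3 genes were detected in most or many barcodes in both libraries: Nkg7 in 87.6% of control and 89.4% of CD4-Cre barcodes (749 and 845 CPM), Ctsw in 82.7% and 81.6% (439 and 443 CPM), and Prf1 in 29.5% and 26.9% (62.8 and 54.4 CPM). Gzma, Gzmb, Gzmk and Fasl were each found in at most 1.14% of barcodes, and Gzmm in 1.69% and 2.49%. No lymph node gate expected to lack these genes held 50 barcodes, so these low shares have no background beside them. Ccl5 was found in 6.06% and 6.73% of these CD8-only barcodes.

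Between genotypes in lymph node CD8-only barcodes, 0 of 7 genes with enough UMIs were called lower and 1 higher, where 7.94% of 9782 genes were called lower and 2.05% higher. The higher gene was Gzma at 7 and 31 UMIs (1.12, -0.09 to 2.55), with 18 of the 31 UMIs in 1 barcode. Nkg7 had 0.17, Ctsw 0.01, Prf1 -0.21, Gzmk 0.36, Fasl 0.30 and Gzmm 0.56. In lymph node CD4-only barcodes 2 of 5 genes were called lower, against 6.85% of 10381 genes lower and 2.27% higher. Fasl was at 13.3 and 6.62 CPM (-1.01, -1.47 to -0.55), found in 5.59% and 2.83% of barcodes. Gzmk had 37 and 20 UMIs (-1.86), from 9 and 8 barcodes, with 18 of the control and 8 of the CD4-Cre UMIs in 1 barcode each. Its expected thinned shares were 0.257% and 0.105% (-0.152 points, -0.623 to 0.116).

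In the lymph node Fasl was the 1 gene called lower in CD8-only than in CD4-only barcodes. Of the 6 genes with enough UMIs in control 4 were called higher and Gzmk came within 1.5-fold, and of 7 in CD4-Cre 6 were higher. The Fasl level was lower in CD8-only than in CD4-only barcodes, by -2.78 on the log2 scale in control (1.94 and 13.3 CPM) and by -1.47 in CD4-Cre (2.39 and 6.62 CPM). Nkg7 was higher in CD8-only by 5.57 and 5.56, Ctsw by 2.38 and 2.43, and Prf1 by 1.45 and 0.90. Over all genes, 5.30% and 5.09% were called higher and 12.1% and 13.3% lower in that comparison. In the pancreas Fasl was higher in CD8-only barcodes, by 1.89 and 1.15.

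Joint detection of the genes was counted per barcode. After thinning to 1000 UMIs, at least 3 of the 8 genes were found in 76.5% (71.1 to 81.2) of NK control and 70.8% (66.1 to 75.3) of NK CD4-Cre barcodes. In pancreas CD8-only barcodes the control share was 26.9% (22.8 to 31.3; 119 of 442) and the CD4-Cre share 16.9% (14.2 to 19.9; 115 of 680), which differ by -10 percentage points (-15.1 to -5.07). Without thinning these were 57.4% and 42.2%. Among CD8-only barcodes with Ccl5, thinned in a draw of their own, the shares were 38.8% and 31.1%. Expected over all thinning draws, the shares were 27.2% and 15.4% of all CD8-only barcodes (-11.8 points, -16.8 to -6.92). They were 37.0% and 30.6% of those with Ccl5 (-6.33, -13.5 to 0.901). For NK barcodes they were 74.5% and 72.1% (-2.38, -8.97 to 4.41), an interval that held 0. In the single draws, pancreas CD4-only barcodes reached 1.21% and 0.977% (1.55% and 1.07% over all draws). Lymph node CD8-only barcodes reached 1.41% and 1.95% (1.85% and 1.91% over all draws). B-lineage barcodes reached 0 of 814 and 0 of 1232, which allows at most 0.452% and 0.299%.

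**Figure D4:**
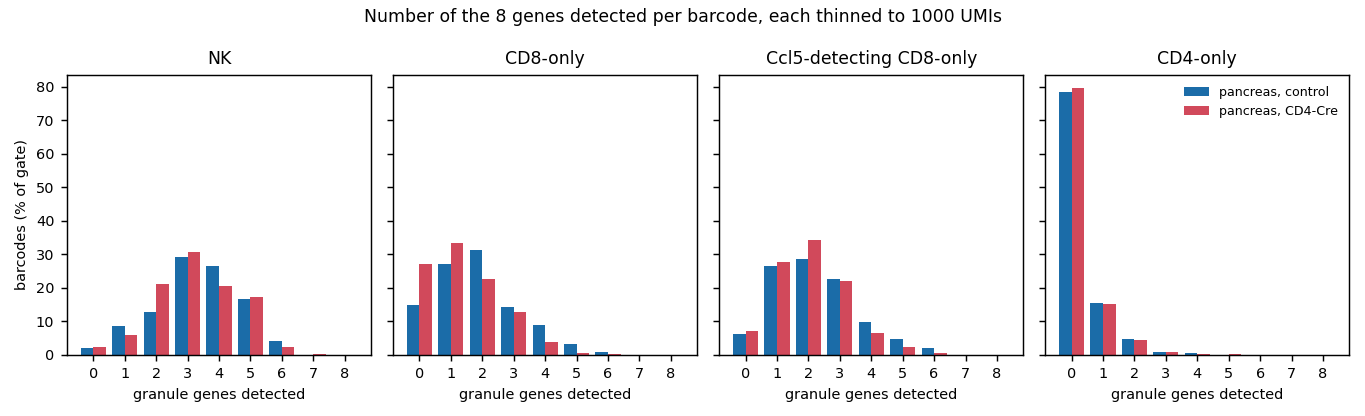
Number of the 8 genes detected in a barcode thinned to 1000 UMIs (horizontal axis) against the percentage of barcodes of the gate (vertical axis from 0), for the pancreas control (blue) and CD4-Cre (red) libraries. NK barcodes peak at 3 genes in both libraries, CD8-only barcodes at 2 in control and 1 in CD4-Cre, and most CD4-only barcodes have none.

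Some pairs of genes were found together more often than the product of their single shares gives. In pancreas CD8-only control barcodes Gzma and Gzmb were both present in 47 barcodes where the product gives 11.7, a ratio of 4.03 (3 to 5.26), and thinning left it at 5.04. Of the barcodes with Gzma, 63.5% had Gzmb and 62.2% had Gzmk. The ratio was 1.49 for Gzma with Gzmk, 1.90 for Gzma with Fasl and 1.88 for Gzma with Prf1. Restricted to barcodes with Ccl5, Gzma with Gzmb had a ratio of 2.97 in control and 3.64 in CD4-Cre, and Gzma with Gzmk 1.11 and 1.36, the latter with intervals that held 1. These ratios compare barcodes of 1 library that differ in depth, and are descriptions with no test.

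In NK barcodes Gzmb was nested in Gzma: 129 of the 131 control barcodes with Gzmb also had Gzma (98.5%), as had 152 of 156 in CD4-Cre, while 55.1% and 50.2% of the Gzma barcodes had Gzmb. In CD8-only barcodes with Ccl5 the reverse share was lower, since 47 of 70 control barcodes with Gzmb had Gzma and 22 of 46 in CD4-Cre. Gzmk was found in 65.7% and 84.8% of these Gzmb barcodes, but in 8.40% and 13.5% of the NK barcodes with Gzmb. Most NK barcodes with Gzmb thus had Gzma, while among CD8-only CD4-Cre barcodes with Ccl5 more Gzmb barcodes had Gzmk than Gzma. These shares depend in part on how common each gene was in its gate, so by themselves they do not show a preference for a partner. In those CD8-only barcodes Gzma and Gzmb were still found together more often than the product of their single shares gives, as stated above.

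**Figure D5:**
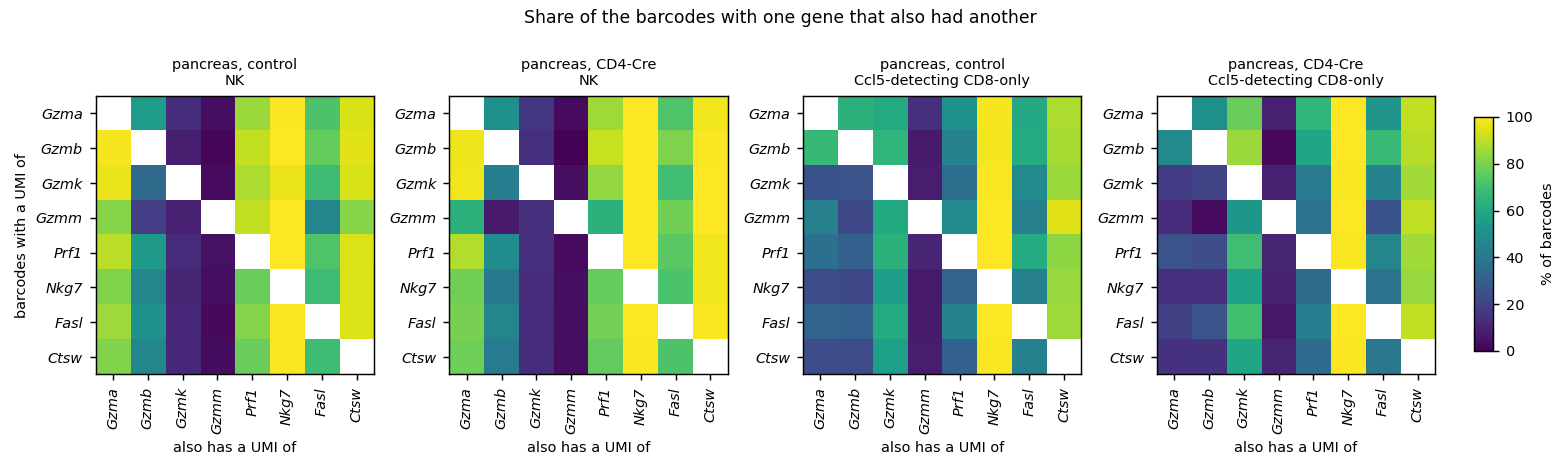
Percentage of the barcodes with a UMI of the gene in the row that also had a UMI of the gene in the column (color, 0 to 100), for pancreas NK barcodes and CD8-only barcodes with Ccl5 in each library, not thinned. The Gzma column is bright in the Gzmb row of both NK panels (98.5% in control) and dimmer in the CD8-only panels (67.1% and 47.8%), where 65.7% and 84.8% of Gzmb barcodes had Gzmk.

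Among the genes of the same pathway, most stayed within 1.5-fold in the pancreas CD8-only gate, where 8.70% of all genes were called lower and 6.87% higher. Of the other granzymes, Gzmc to Gzmg and Gzmn, 0 of 6 had 20 UMIs. Genes of granule content and processing had 0 of 7 past 1.5-fold (Srgn, the granule proteoglycan, -0.20; Cst7, an inhibitor of cathepsins, 0.15) and granule release 0 of 8 (Lyst 0.50; Stx11 -0.36). Serpinb9, an inhibitor of granzyme B, had -0.42. Of 3 other death ligands 1 was lower, Tnfsf10 (TRAIL), at 37.5 and 19.7 CPM (-0.93, -1.41 to -0.45). Of 6 transcription factors of cytotoxic cells 3 were lower: Zeb2, at 50.4 and 15.4 CPM (-1.71, -2.21 to -1.23), Prdm1 (-0.76) and Tbx21, which encodes T-bet (-0.63, -0.97 to -0.28), while Eomes had -0.17 and Runx3 -0.12. Ccr7, a chemokine receptor gene of naive T cells, was higher (0.76). Within barcodes with Ccl5, where 8.27% of all genes were called lower and 7.24% higher, 1 of the 6 factors, Zeb2 (-1.58), was lower and Ccr7 (0.92) was higher. There Tnfsf10 (-0.62) and Lta (-1.02), 2 of the 3 death ligands, were lower and Fadd (0.65) was higher.

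The same lists in NK barcodes had, for CD4-Cre over control, beside 6.14% of all genes lower and 9.63% higher, 1 of 7 content genes lower (Ctsl, a cathepsin, -1.06), 1 of 8 release genes lower (Lyst, -0.88), 1 of 2 other death ligands higher (Tnf, 0.63), and 0 of 6 factors past 1.5-fold, and Fadd, an adaptor of death receptors, was higher (0.86). NK over CD8-only control barcodes had 4 of 6 factors higher, among them Tbx21 (260 and 64.3 CPM) and Eomes (499 and 128 CPM), where 17.0% of all genes were higher and 14.2% lower. Genes that protect from granzymes or are their targets went both ways: Serpinb9 (244 and 30.5 CPM), Serpinb6b (292 and 45.3 CPM) and Bid (0.92) were higher, and Serpinb6a (-1.72) and Fas, the receptor of the Fas ligand (3.08 and 41.2 CPM, -3.74), were lower. In pancreas CD4-only barcodes 6.79% of all genes were called lower and 4.00% higher in CD4-Cre. There 1 of 7 content genes, Ctsl (1.02), was higher. Lower were 1 of 8 release genes, Lyst (-0.61), and 2 of 6 factors, Eomes (-1.03) and Prdm1 (-0.68). In lymph node CD8-only barcodes 1 gene of these lists was lower, Rab27a (-0.81), 1 of 8 of granule release, where 7.94% of all genes were called lower and 2.05% higher. In lymph node CD4-only barcodes Tnf (-0.60), 1 of 3 death ligands, and Tbx21 (-0.63), 1 of 5 factors, were lower. Over all genes 6.85% were lower and 2.27% higher there.

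Over the 27 pairs of gate and library with at least 50 barcodes, the levels of each gene on a log2(CPM + 10) scale were compared with those of 9034 genes. These points share libraries and some barcodes, so the correlations describe likeness only. Gzma was most like Klre1 (Pearson r 0.98), Klrk1 (0.96) and Il18rap (0.96), the first 2 of which encode NK receptors. Gzmb was most like Osbpl3, Camk2n1 and Vps36 (0.96, 0.96 and 0.95), and Nkg7 like Tpst2, Cst7 and Cxcr6 (0.96, 0.95 and 0.94). Fasl was most like Gzma itself (0.96), then Klre1 and Il18rap (both 0.95), and Ctsw like F2r (0.95), Ly6a (0.94) and Nkg7 (0.93). Prf1 was most like Gm14029 (0.94), Eya2 and Ifitm10 (both 0.92). The likeness of Gzmk and Gzmm was weaker, with Lgalsl (0.90), Kcnc1 (0.83) and Ebpl (0.81) for Gzmk and Snai3 (0.85), Fgf13 (0.82) and Reck (0.80) for Gzmm. Among the 8 genes the closest pair was Gzma with Fasl (0.96) and the least alike Gzmb with Gzmm (0.39), with Gzma and Gzmk at 0.64.

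T-cell receptor segments crossed these genes in pancreas CD8-only barcodes. Values are side by side with no comparison, since 1 clone can hold many barcodes. The 8 control and 79 CD4-Cre barcodes with Trbv15 had 322 and 237 CPM of Gzma, 198 and 465 of Gzmk and 1784 and 3777 of Nkg7, and the 67 and 59 barcodes with Trbv13-3 had 484 and 753 CPM of Gzma, from 4 and 5 barcodes, and 191 and 279 of Gzmb, from 10 and 5. Gzma with Trbv15 likewise came from 2 and 7 barcodes.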

How the data were processed

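Per the labels' protocols, 5′ droplet libraries were made from pooled mice. The deposited values are UMI counts per gene and barcode, whole numbers that the authors did not normalize. Cell Ranger and mm10 are named in the submitters' processing notes, and the file headers give software version 3.0.0. Replicate animals were pooled before sequencing.

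Barcodes with at least 500 genes and at most 10% mitochondrial UMIs were kept, and the barcodes with the most simulated doublets among their nearest neighbours (2 simulated per barcode, scikit-learn 1.9.0) were removed at 0.8% per 1000 barcodes, 75 to 388 a library. Listed UMIs were 14851217 to 32798133 a library. Counts were summed per gate with at least 50 barcodes. Intervals are 95% exact Poisson, exact binomial (Clopper-Pearson), exact conditional for ratios, or Newcombe for differences of shares. Sums of 0 UMIs were set to 3 UMIs in ratios. The calculation of ratios was tested on simulated data. Python 3.11.15, scipy 1.17.1, edgeR 4.0.16 and DESeq2 1.42.0 (the last 2 for size factors only) were used. Promoters and motifs came from RefSeq, and 30934 of 31053 identifiers matched GENCODE M21.

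Named genes were the 8 genes, the pathway lists (other granzymes, content, release, protection and targets, death ligands, transcription factors, naive T cells) and the 3 genes most like each by correlation. The genes and lists were chosen with earlier results of these data known. One gene of the naive list and one of the protection and target list are not reported here, and no count is given for those lists.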

Additional observations from a re-analysis of the deposited data

How the results depend on the processing

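No paired analysis was possible because each group holds 1 library, and no replicate could be left out. Alternatives were other barcode, doublet, gate, weighting, scaling, fold, minimum and background settings, and 4 chosen after seeing the data (T gates without Ncr1, T gates without the 4 NK-lineage transcripts, removal of the top barcode, and shares expected over all thinning draws). The count of genes lower in pancreas CD8-only CD4-Cre barcodes, 3, was 1 at a 2-fold threshold and 3 under each of the first 3 of these. In pancreas CD4-only barcodes the count of 1 was 0 with doublets removed at 1.6%. With no doublet removal it was 1 but from Gzmb (-0.62), as Gzma (-0.31) was no longer called. The count was 2 with at least 2 UMIs of the positive marker, 2 without Cd79a, Ms4a1 or Lyz2 UMIs, and 2 without the 4 NK-lineage transcripts. It was 1 in NK barcodes with equal weight for each barcode (Gzmb -0.64) and 1 in lymph node CD8-only barcodes with no UMI minimum. The share of all genes called was computed for the main setting only, so the counts under alternatives have no such share beside them. The difference in the share with at least 3 genes, -10 points, was -11.8 over all thinning draws, -15.2 without thinning and -18.7 for at least 2 genes (58.1% and 39.4%). The causes of these changes were not tested, apart from the thresholds, which are stricter or looser by construction. The remaining 93 of these counts and shares came within 1.5 times or within the interval. Of the values for single genes under these alternatives, 65 moved, 759 did not, and no called ratio changed sign. Over all settings the pancreas CD8-only ratios ran from -2.26 to -1.06 for Gzma, -1.35 to -0.69 for Gzmb and -1.05 to -0.76 for Fasl. The pancreas CD4-only ratios ran from -1.53 to -0.19 for Gzma and from -0.88 to 1.37 for Gzmb, so no direction is read for that gene. TMM and DESeq2 size factors moved lymph node CD8-only ratios by 0.11 and 0.12, and the Gzmm ratio there ran from 0.10 to 0.78.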
